A study of Mus musculus with 18 samples.

Results

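The genes of sterol and fatty acid synthesis were followed in dopamine neurons of mice given MPTP. They were taken by symbol from a list of 28 genes, and 27 of them had a probe set that the array annotation ties to that symbol alone. These 27 genes, read by 58 probe sets, stand among 18193 genes and 34945 probe sets named in the same way. Acat2, the cytosolic thiolase that feeds the pathway, had no such probe set and was not analysed here.

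Neurons of the ventral tegmental area (VTA) and the substantia nigra (SN) had been cut out of adult C57Bl/6 mouse brain with a laser. All mice, saline-injected ones included, carried the hTH-GFP transgene, in which sequences of human tyrosine hydroxylase drive a green fluorescent protein, and had been housed singly for 9 weeks. In the VTA and in the SN there were 3 arrays each after MPTP at 4 mg/kg for 2 days, after MPTP at 4 mg/kg for 10 days and after saline for 10 days, 18 arrays in all. Tissue was taken 7 days after the last injection. MPTP becomes, in the brain, a toxic ion that enters dopamine neurons through the dopamine transporter and blocks mitochondrial respiration. The 2 day groups differ from saline in the number of injection days as well, and the sample descriptions call the saline groups untreated. The titles call the arrays of a group biological replicates. Which mouse an array came from, and how dopamine neurons were recognised, is not in the labels. The p-values measure the spread between arrays, and how much of that spread is technical is not known.

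Signals are log2 values centred on each probe set's own median over the 18 arrays. They hold differences between arrays, not levels, so genes are not ranked by level and no marker can be shown to be present or absent. Captured tissue gives bulk RNA: fewer cells of a type and less RNA per cell cannot be told apart. The 15 measured dopamine neuron markers, among them Th and Slc6a3, varied widely between arrays of one label. Their mean lay between -0.73 and 0.17 on VTA arrays after 2 days, between -0.33 and 0.62 after 10 days and between -0.52 and 0.73 after saline. On SN arrays it lay between -0.57 and -0.14 after 2 days, between -0.18 and 0.32 after 10 days and between 0.34 and 0.96 after saline. Array 1 of the VTA 2 day group and array 1 of the SN saline group had the widest spread over all genes, with a median absolute deviation of 0.399 and 0.349, against 0.182 to 0.302 on the other arrays.

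Lipoprotein cholesterol hardly crosses the blood-brain barrier, so the brain makes its own from acetyl-CoA through mevalonate, squalene and lanosterol. Transcription of the pathway is driven by the membrane-bound factors SREBP-1 and SREBP-2, encoded by Srebf1 and Srebf2. When membranes are poor in sterol, Scap carries them out of the endoplasmic reticulum for cleavage, and when sterol is plentiful the Insig proteins hold Scap back. Insig1 is itself a target of SREBP, and SREBP-1 is best known for the genes of fatty acid synthesis.

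Promoter windows are shown for Hsd17b7, Insig1 and Cyp51, the members of smallest p in SN after 2 days, for Insig2, the paralog of Insig1, and for Hmgcs1, the member with a sterol element in its window. They are RefSeq sequence on GRCm38.p6, 5′ to 3′ along the gene, and end at the base before the annotated start. Capitals mark matches to TCACNCCAC (a sterol element), CCAAT (the box read by NF-Y) and GGGCGG (the box read by Sp1), each searched on both strands. Hsd17b7 is from chr1:169969206-169969455 (minus strand), Insig1 from chr5:28071162-28071411 (plus strand), Cyp51 from chr5:4104698-4104947 (minus strand), Insig2 from chr1:121332590-121332839 (minus strand), the first of its 3 windows, and Hmgcs1 from chr13:119690101-119690350 (plus strand).
Hsd17b7: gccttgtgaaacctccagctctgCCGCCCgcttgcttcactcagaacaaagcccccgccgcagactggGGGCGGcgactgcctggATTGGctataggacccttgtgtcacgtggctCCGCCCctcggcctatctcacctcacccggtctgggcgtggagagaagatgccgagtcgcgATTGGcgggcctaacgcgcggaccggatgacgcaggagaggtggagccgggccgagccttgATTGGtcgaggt
Insig1: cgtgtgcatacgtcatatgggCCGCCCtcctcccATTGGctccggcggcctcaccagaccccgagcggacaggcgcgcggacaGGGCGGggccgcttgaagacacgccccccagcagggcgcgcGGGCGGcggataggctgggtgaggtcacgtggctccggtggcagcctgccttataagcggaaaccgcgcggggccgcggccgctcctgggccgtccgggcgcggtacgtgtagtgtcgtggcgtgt
Cyp51: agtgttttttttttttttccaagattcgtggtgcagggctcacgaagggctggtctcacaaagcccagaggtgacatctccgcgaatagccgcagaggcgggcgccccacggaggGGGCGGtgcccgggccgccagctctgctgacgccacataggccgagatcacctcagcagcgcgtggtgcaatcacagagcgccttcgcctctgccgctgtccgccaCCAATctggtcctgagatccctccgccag
Insig2: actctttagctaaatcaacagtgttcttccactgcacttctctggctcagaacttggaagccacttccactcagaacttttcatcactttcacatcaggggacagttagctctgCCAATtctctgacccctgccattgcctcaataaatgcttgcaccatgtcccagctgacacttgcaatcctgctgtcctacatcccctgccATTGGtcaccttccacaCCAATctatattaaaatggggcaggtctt
Hmgcs1: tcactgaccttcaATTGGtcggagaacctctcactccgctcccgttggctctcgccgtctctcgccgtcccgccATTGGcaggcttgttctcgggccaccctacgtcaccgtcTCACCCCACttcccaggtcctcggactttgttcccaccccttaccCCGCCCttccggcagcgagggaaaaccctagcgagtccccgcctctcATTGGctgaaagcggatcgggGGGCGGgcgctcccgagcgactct

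Of the 27 measured members, 21 matched a gene in the promoter table. Within windows of 300 bases, 250 before the start and 50 after it, CCAAT was found in 19 of the 21 members (90.5%), against 41.1% of all 27025 genes in the table. GGGCGG was found in 18 members (85.7%), against 38.2% of all genes. A gene with several windows counted when any of them held a match, so Insig2 counts for GGGCGG through windows not printed here. The genes of the promoter table were not limited to those on the array. The sterol element was found in 1 member (4.76%), Hmgcs1, against 1.44% of all genes. Among the printed windows, that of Hsd17b7 holds 3 CCAAT and 3 GGGCGG matches, that of Insig1 holds 1 and 3, that of Cyp51 holds 1 of each, and that of Insig2 holds 3 CCAAT matches and 0 GGGCGG matches. The only matches that overlap are 2 CCAAT matches in Fasn, which share 2 bases. A match describes the letters of the window and is not a measured binding site. Only 1 spelling of the sterol element was searched, TCACNCCAC, so a window without it is not shown to lack a sterol element.

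After 2 days of MPTP, most of the sterol genes had lower signals in SN neurons than after saline, by small amounts. The SN MPTP minus saline difference was below 0 for 22 of the 27 members, against 55.3% of all genes, and the members' median was -0.15, against -0.027 over all genes. By role, 5 of 6 genes of the mevalonate steps (median -0.23), 10 of 11 genes from squalene to cholesterol (median -0.22), 3 of 5 genes of SREBP control (median -0.11) and 3 of 4 genes of fatty acid synthesis (median -0.039) were lower. No member passed limma's adjusted p of 0.05, nor did any of the 18193 genes (0%). The smallest adjusted p among members was 0.646. At an unadjusted p under 0.05 there were 6 members, all lower, against 3.8% of all genes lower and 2.85% higher.

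Hsd17b7, the ketosteroid reductase of the demethylation steps after lanosterol, had log2 signals of -0.16, -0.46 and -0.17 on the SN 2 day arrays, against 0.36, 0.13 and 0.19 on the SN saline arrays. The groups did not overlap, and the difference was -0.49 ± 0.16 (SE, n = 3 arrays each, limma adjusted p = 0.646). Insig1 stood at -0.21, -0.35 and -0.22 on the 2 day arrays, against 0.47, -0.019 and 0.011 on the saline arrays. All 3 treated arrays were below all 3 saline arrays, but saline array 1 was far above the other two. Its difference was -0.41 ± 0.14 (limma adjusted p = 0.646), and -0.26 without saline array 1. Cyp51, the lanosterol demethylase, was tight within each group only as the mean of its 3 probe sets. It had -0.14, -0.20 and -0.17 on the 2 day arrays, against 0.33, 0.21 and 0.17 on the saline arrays. Its difference was -0.40 ± 0.14 (limma adjusted p = 0.646). Its probe set 1422533_at was at 0.28, -0.24 and -0.10 on the 2 day arrays, against 0.71, 0.18 and 0.25 on the saline arrays, with overlap. Probe sets 1422534_at and 1450646_at were lower on every 2 day array.

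Sqle, the squalene epoxidase that limits the sterol branch, had signals of -0.41, -0.0063 and -0.13 in SN after 2 days, against 0.20, 0.29 and 0.11 after saline, a difference of -0.38 ± 0.15 (limma adjusted p = 0.693). Mvd, the decarboxylase that makes isopentenyl diphosphate, had -0.077, -0.37 and -0.39 after 2 days, against 0.091, 0.31 and 0.37 after saline, the difference farthest from 0 among the members at -0.53 ± 0.21 (limma adjusted p = 0.696). Both genes were lower on every 2 day array than on every saline array. So were 8 further members, which makes 10 of 27, against 8.56% of all genes: Hsd17b7, Insig1, Cyp51, Pmvk, Idi1, Fdft1, Ebp and Insig2. For Insig2 this held for the mean of its probe sets but for no single probe set. Scap, the SREBP escort, was higher on all 2 day arrays, the 1 member of which this held, against 5.96% of all genes.

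The genes of the factors themselves were not separated in SN after 2 days. Srebf1 was at 0.42, -0.38 and -0.46 on the 2 day arrays, against -0.84, -0.11 and -0.030 on the saline arrays, and its difference was 0.19 ± 0.30 (limma adjusted p = 0.951). Srebf2 was at -0.22, 0.12 and 0.047 on the 2 day arrays, against -0.014, 0.072 and 0.23 on the saline arrays, with a difference of -0.11 ± 0.20 (limma adjusted p = 0.957). In both genes the groups overlapped, and in Srebf1 the spread within each group exceeded the difference between them.

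**Figure D1:**
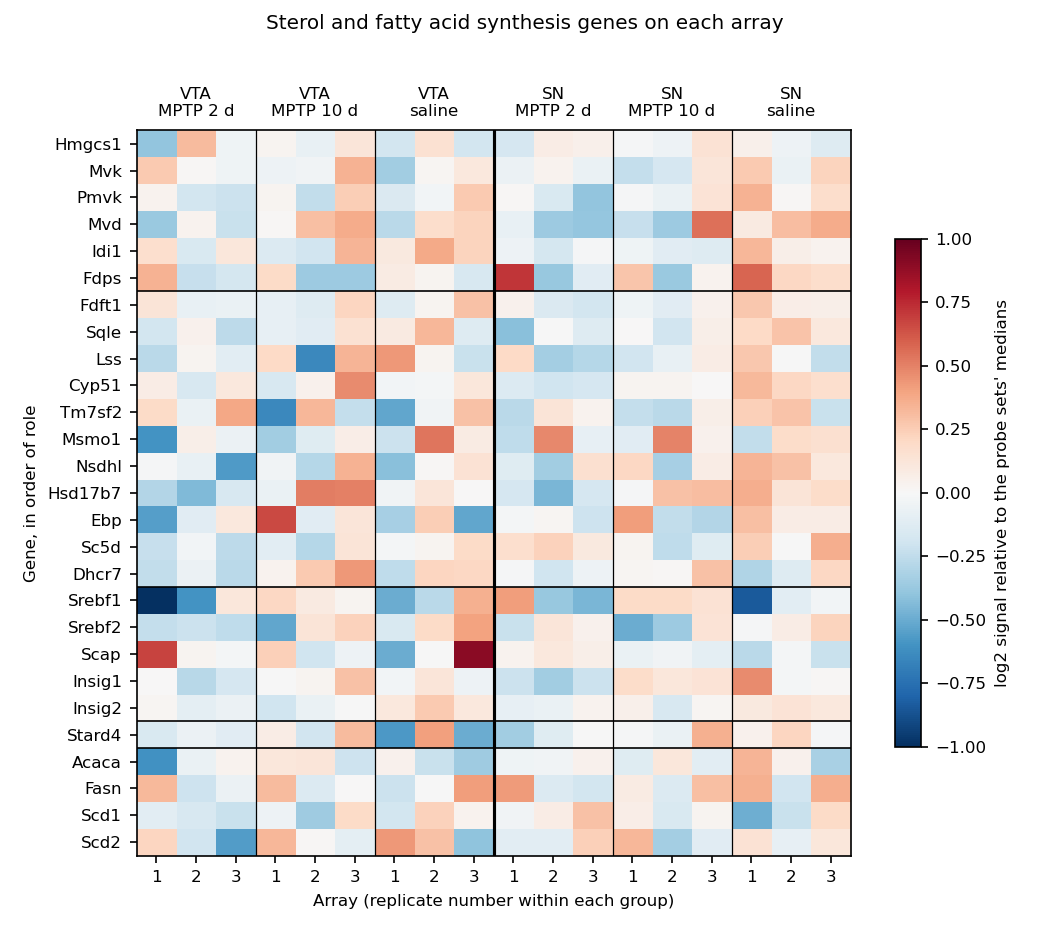
Heat map of the 27 measured genes (rows, in order of role) on the 18 arrays (columns, by group), coloured by log2 signal relative to the probe sets' medians. On the SN 2 day arrays 19, 18 and 17 genes were below 0, against 6, 11 and 7 on the SN saline arrays.

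Markers of dopamine neurons and of other cells moved with the SN 2 day comparison. Of the dopamine neuron markers, 15 of 15 were lower (median -0.98), 14 of them on all arrays. Astrocyte markers had a median of 0.18, with 12 of 15 higher, and their mean lay between -0.048 and 0.24 on 2 day arrays, against -0.17 and -0.022 on saline arrays. Oligodendrocyte markers, from cells that make much sterol for myelin, had a median of -0.16, with 11 of 15 lower, and their mean lay between -0.15 and -0.043 on 2 day arrays, against -0.14 and 0.45 on saline arrays. Erythrocyte markers were lower for 3 of 3 (median -0.67). The part of these cells in the members' difference was not tested. With each array left out in turn, the members' median ran from -0.25 (without saline array 3) to -0.12 (without saline array 1), with 21 to 23 members lower.

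After 10 days of MPTP, the SN difference was below 0 for 20 of 27 members, against 53.4% of all genes, with a median of -0.14, against -0.017 over all genes. No member passed, where limma called 1 gene (0.0055%), and 1 member, Sc5d, which was lower, reached an unadjusted p under 0.05, against 3.14% of all genes lower and 2.43% higher. Idi1, Fdft1, Sqle, Cyp51 and Insig2 were lower on all 10 day arrays than on all saline arrays, 5 of 27, against 6.27%. For Insig2 this held for the mean alone, as each of its single probe sets overlapped. Probe sets 1423804_a_at of Idi1 and 1422534_at of Cyp51 overlapped too, and of Fdft1 only 1438919_x_at was separated. The 10 day and 2 day contrasts use the same saline arrays. The dopamine neuron markers had a median of -0.64, with 15 of 15 lower, and the astrocyte markers one of 0.17, with 13 of 15 higher. Oligodendrocyte markers had one of -0.18, with 13 of 15 lower, and erythrocyte markers one of -0.54, with 3 of 3 lower; the part of these cells was not tested. Without SN saline array 1 the members' median was -0.075.

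Cyp51 was at 0.030, 0.031 and 0.0057 on the SN 10 day arrays, against 0.33, 0.21 and 0.17 on the saline arrays, a difference of -0.21 ± 0.14 (limma adjusted p = 0.948). Idi1, the isomerase of isopentenyl diphosphate, was at -0.042, -0.11 and -0.13 on the 10 day arrays, against 0.33, 0.055 and 0.036 on the saline arrays, a difference of -0.23 ± 0.15 (limma adjusted p = 0.941). Sqle was at 0.0063, -0.19 and 0.061 on the 10 day arrays, against 0.20, 0.29 and 0.11 on the saline arrays, a difference of -0.24 ± 0.15 (limma adjusted p = 0.941). In these 3 genes every 10 day array was below every saline array. Insig2, not known as a classical SREBP target, was at 0.047, -0.16 and 0.019 on the 10 day arrays, against 0.10, 0.14 and 0.11 on the saline arrays, a difference of -0.14 ± 0.11 (limma adjusted p = 0.965).

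In SN after 10 days the mean signals of Insig1 and Hsd17b7 were near those after saline. Insig1 was at 0.19, 0.11 and 0.13, against 0.47, -0.019 and 0.011 after saline, a difference of -0.0099 ± 0.14 (limma adjusted p = 0.998). Without saline array 1 the difference was 0.15. Hsd17b7 was at -0.012, 0.29 and 0.31, against 0.36, 0.13 and 0.19 after saline, a difference of -0.030 ± 0.16 (limma adjusted p = 0.994). Its probe sets did not move alike. Probe set 1448865_at was at 0.42, 0.33 and 0.46, against 0.37, 0.11 and 0.17 after saline. Probe set 1417871_at was at -0.36, 0.46 and 0.58, against 1.21, 0.37 and 0.38 after saline, and both overlapped. Srebf1 was the 1 member higher on all SN 10 day arrays, against 5% of all genes, at 0.19, 0.19 and 0.15, against -0.84, -0.11 and -0.030 after saline. Its difference was 0.50 ± 0.30 (limma adjusted p = 0.932), and 0.24 without saline array 1. Srebf2 was at -0.50, -0.36 and 0.14, against -0.014, 0.072 and 0.23 after saline, a difference of -0.34 ± 0.20 (limma adjusted p = 0.941) with overlapping arrays.

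**Figure D2:**
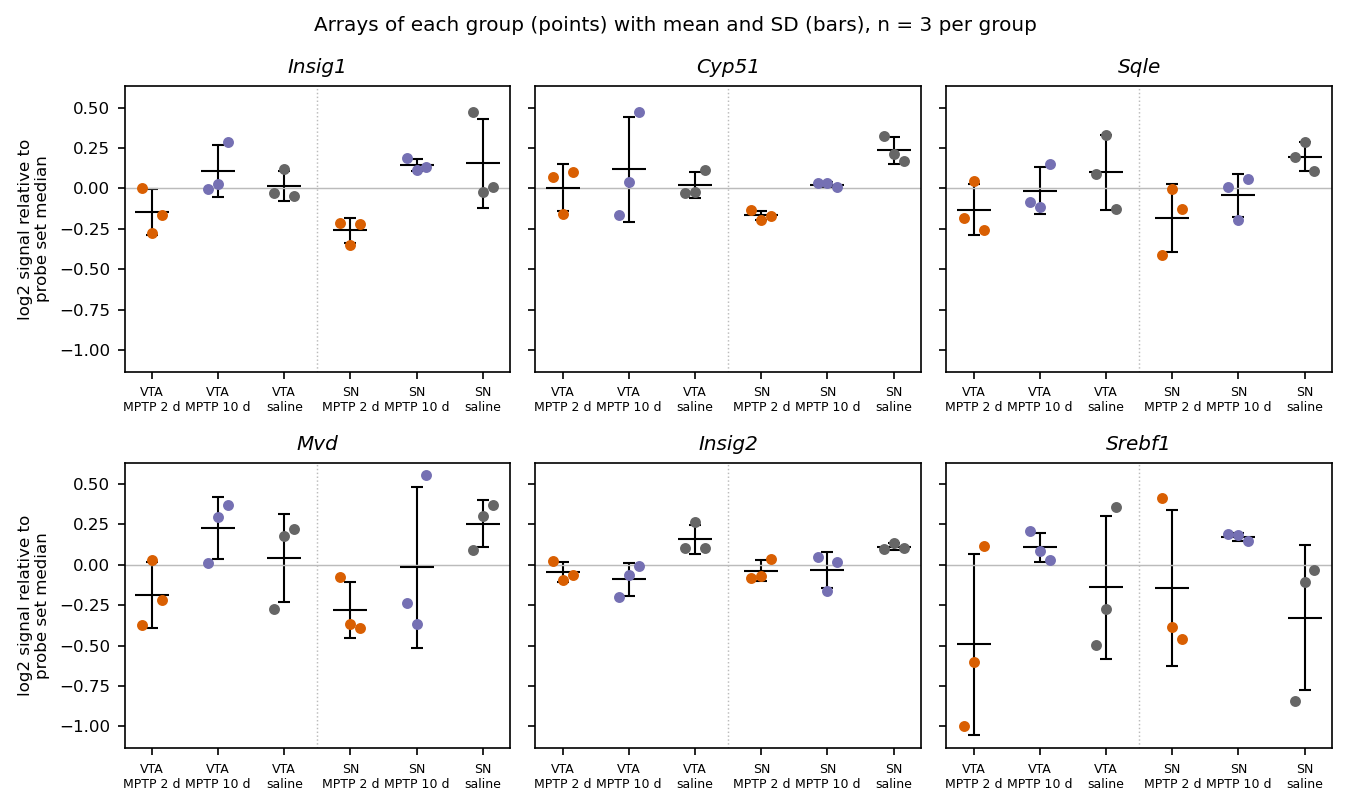
Log2 signal relative to the probe sets' medians (y axis) for 6 genes on each array (points), with mean and SD (bars, n = 3 arrays per group), by group (x axis), VTA groups left of SN groups. In SN after 2 days Insig1, Cyp51, Sqle and Mvd lie below all saline arrays, and after 10 days Insig1 is at 0.11 to 0.19.

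Set directly against each other, the 10 day and 2 day SN arrays were separated for 6 members. Insig1, at 0.19, 0.11 and 0.13 after 10 days, against -0.21, -0.35 and -0.22 after 2 days, differed by 0.40 ± 0.14 (limma adjusted p = 1.00). Hsd17b7 differed by 0.46 ± 0.16 (limma adjusted p = 1.00), also higher on every 10 day array. Cyp51 (0.19 ± 0.14) and Dhcr7 (0.19 ± 0.17), the reductase of the last step, were higher on every 10 day array too, which made 4 of 27 members, against 6.1% of all genes. Sc5d (-0.28 ± 0.14) and Scap (-0.13 ± 0.26) were lower on every 10 day array, 2 of 27, against 5.02%. For Scap this held for the mean of its probe sets but for no single probe set.

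Srebf1 differed between 10 and 2 days in SN by 0.32 ± 0.30 and Srebf2 by -0.22 ± 0.20, with overlap (limma adjusted p = 1.00 for both). Over the members the median was 0.048, against 0.0088 over all genes, and 17 were higher, against 52.1%. With single arrays left out, the members' median ran from -0.012 (without SN 2 day array 2) to 0.10 (without SN 10 day array 2), and 9 (without SN 2 day array 3) to 14 members (without SN 2 day array 2) were lower. No member passed limma's test, in which 3 genes (0.0165%) did. Insig1 and Hsd17b7 were the 2 members under an unadjusted p of 0.05, against 1.31% of all genes lower and 1.7% higher. The 2 day arrays enter both this contrast and that against saline. In this contrast the dopamine neuron markers had a median of 0.43, with 14 of 15 higher. The mean of the GABA and glutamate neuron markers lay between -0.13 and -0.061 on 10 day arrays, against 0.039 and 0.12 on 2 day arrays. The part of either was not tested.

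In VTA neurons after 2 days of MPTP, 21 of 27 members were below their saline signal, against 51.6% of all genes, with a median of -0.16, against -0.0082 over all genes. By role, 9 of 11 genes from squalene to cholesterol (median -0.20), 4 of 5 genes of SREBP control (median -0.20), 4 of 6 genes of the mevalonate steps (median -0.076) and 4 of 4 genes of fatty acid synthesis (median -0.12) were lower. No member passed limma's adjusted p, where 2 genes did (0.011%), and 0 members reached an unadjusted p under 0.05, against 3.92% of all genes lower and 4.14% higher. Hsd17b7, Insig2, Srebf2 and Sc5d were lower on all 2 day arrays, 4 of 27, against 4.92%, and 0 members were higher on all of them, against 5.1%. This holds for means over probe sets. No single probe set of Sc5d was separated, and only 1417982_at of Insig2 and 1452174_at of Srebf2 were. Of Hsd17b7, 1417871_at and 1457248_x_at were lower on all 2 day arrays, 1448865_at overlapped and 1440057_at was higher on all of them. With each array left out in turn, the members' median ran from -0.22 (without VTA saline array 1) to -0.11 (without VTA saline array 2).

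Hsd17b7 was at -0.29, -0.44 and -0.16 on the VTA 2 day arrays, against -0.033, 0.12 and 0.0021 on the VTA saline arrays, a difference of -0.33 ± 0.16 (limma adjusted p = 0.641). Srebf2, which encodes the factor most tied to the sterol genes, was at -0.24, -0.22 and -0.25 on the 2 day arrays, against -0.15, 0.19 and 0.40 on the saline arrays, a difference of -0.38 ± 0.20 (limma adjusted p = 0.676). Its treated arrays lay close together, and its saline arrays were spread. Insig2 was at 0.021, -0.10 and -0.060 on the 2 day arrays, against 0.11, 0.26 and 0.10 on the saline arrays, a difference of -0.20 ± 0.11 (limma adjusted p = 0.673). Sc5d, the sterol desaturase late in the pathway, was at -0.23, -0.024 and -0.26 on the 2 day arrays, against -0.017, 0.030 and 0.19 on the saline arrays, a difference of -0.24 ± 0.14 (limma adjusted p = 0.718).

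Sqle, at -0.18, 0.047 and -0.26 in VTA after 2 days, against 0.090, 0.33 and -0.13 after saline, differed by -0.23 ± 0.15 (limma adjusted p = 0.756). Insig1, at 0.0042, -0.28 and -0.16 after 2 days, against -0.030, 0.12 and -0.048 after saline, differed by -0.16 ± 0.14 (limma adjusted p = 0.834). Srebf1, at -0.99, -0.60 and 0.12 after 2 days, against -0.50, -0.27 and 0.36 after saline, differed by -0.36 ± 0.30 (limma adjusted p = 0.822). The arrays overlapped in these 3 genes. Oligodendrocyte markers moved with the comparison: 15 of 15 were lower (median -0.45), and their mean lay between -0.46 and 0.027 on 2 day arrays, against 0.070 and 0.50 on saline arrays. Dopamine neuron markers had a median of -0.71, with 14 of 15 lower, and astrocyte markers one of -0.17, with 14 of 15 lower. Also lower were 5 of 6 oligodendrocyte precursor (median -0.44), 9 of 11 microglia (median -0.30) and 8 of 11 endothelial markers (median -0.23). Their part in the members' difference was not tested.

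After 10 days the VTA members were divided. The difference from saline was below 0 for 15 of 27, against 50.9% of all genes, with a median of -0.023, against -0.0047 over all genes. No member passed, where limma called 2 genes (0.011%), and Insig2, which was lower, was the 1 member under an unadjusted p of 0.05, against 2.53% of all genes lower and 2.89% higher. Insig2 was also the 1 member lower on all 10 day arrays, against 4.53%, and 0 members were higher on all of them, against 4.77%. It was at -0.20, -0.065 and -0.0040 on the 10 day arrays, against 0.11, 0.26 and 0.10 on the saline arrays, a difference of -0.25 ± 0.11 (limma adjusted p = 0.865). Without VTA 10 day array 2 the members' median was 0.10 and 9 were lower, so its direction rested on single arrays. Dopamine neuron markers had a median of -0.26, with 14 of 15 lower, and oligodendrocyte markers one of -0.27, with 13 of 15 lower, and erythrocyte markers one of -0.30, with 3 of 3 lower; their part was not tested.

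Hsd17b7 was at -0.070, 0.51 and 0.50 on the VTA 10 day arrays, against -0.033, 0.12 and 0.0021 after saline, a difference of 0.28 ± 0.16 (limma adjusted p = 0.923). Ebp, the sterol isomerase, was at 0.66, -0.11 and 0.12 after 10 days, against -0.33, 0.25 and -0.52 after saline, a difference of 0.42 ± 0.24 (limma adjusted p = 0.926). It was 0.21 without 10 day array 1, 0.26 without saline array 3 and 0.65 without saline array 2. Stard4, a carrier of cholesterol between membranes, was at 0.073, -0.19 and 0.31 after 10 days, against -0.58, 0.41 and -0.49 after saline, a difference of 0.29 ± 0.22 (limma adjusted p = 0.956). It was 0.11 without saline array 1 and 0.60 without saline array 2. Idi1 was at -0.14, -0.19 and 0.34 after 10 days, against 0.10, 0.38 and 0.23 after saline, a difference of -0.23 ± 0.15 (limma adjusted p = 0.935). All 4 genes overlapped between the groups.

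Insig1 differed in VTA after 10 days by 0.092 ± 0.14 (limma adjusted p = 0.989), with its 10 day arrays at -0.0042, 0.029 and 0.29. Srebf1 differed by 0.25 ± 0.30 (limma adjusted p = 0.987), with its 10 day arrays at 0.21, 0.087 and 0.030. Srebf2 differed by -0.20 ± 0.20 (limma adjusted p = 0.982), with its 10 day arrays at -0.52, 0.13 and 0.23. In each of them 10 day and saline arrays overlapped.

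**Figure D3:**
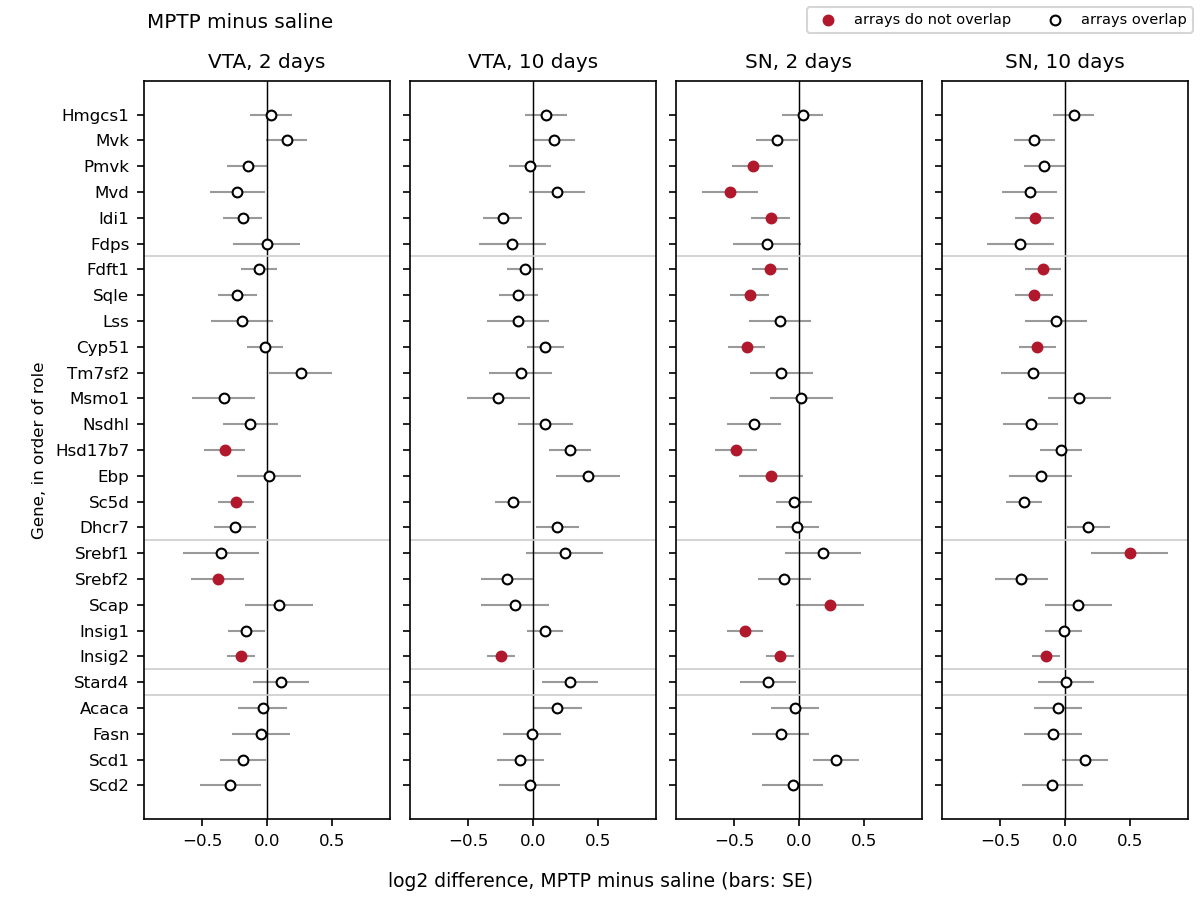
Log2 difference (x axis, MPTP minus saline, bars are SE, n = 3 arrays per group) of each measured gene (y axis, in order of role) in 4 contrasts; filled points mark genes whose arrays do not overlap between the groups. Points lie below 0 for 21 genes in VTA after 2 days, 15 in VTA after 10 days, 22 in SN after 2 days and 20 in SN after 10 days.

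Between 10 and 2 days in VTA, 22 of 27 members were higher after 10 days, against 50.1% of all genes, and the median was 0.11, against 0.00020 over all genes. With single arrays left out, the members' median ran from 0.019 (without VTA 10 day array 3) to 0.19 (without VTA 2 day array 2), and 4 (without VTA 10 day array 2) to 12 members (without VTA 10 day array 3) were lower. Hsd17b7 had the smallest p, with a 10 minus 2 day difference of 0.61 ± 0.16 (limma adjusted p = 0.437), and all 3 of its 10 day arrays were above all 2 day arrays. Dhcr7 was at 0.033, 0.26 and 0.43 on 10 day arrays, against -0.24, -0.055 and -0.27 on 2 day arrays, a difference of 0.43 ± 0.17 (limma adjusted p = 0.707). These 2 of 27 members were higher on all arrays, against 5.11% of all genes, and 0 were lower on all, against 5.13%. They were also the 2 under an unadjusted p of 0.05, against 3.18% of all genes lower and 3.16% higher.

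Mvd (0.41 ± 0.21), Srebf1 (0.60 ± 0.30), Insig1 (0.25 ± 0.14) and Srebf2 (0.18 ± 0.20) overlapped between 10 and 2 days in VTA (limma adjusted p = 0.827, 0.814, 0.833 and 0.938). Averaged over probe sets, no member passed limma's test, in which 6 genes (0.033%) did. In this contrast the dopamine neuron markers had a median of 0.38, with 13 of 15 higher, the oligodendrocyte markers one of 0.21, with 11 of 15 higher, and the astrocyte markers one of 0.11, with 12 of 15 higher, and their part was not tested.

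The 4 probe sets of Hsd17b7 did not move alike, and 1 of them passed the test in 1 comparison, a call that depended on the fit. Probe set 1448865_at had log2 signals of 0.63, 0.74 and 0.77 on the VTA 10 day arrays, against -0.77, -0.57 and -0.41 on the VTA 2 day arrays, and -0.13, -0.15 and -0.73 on the VTA saline arrays. Tested singly among 34945 probe sets, it was higher after 10 than after 2 days by 1.29 ± 0.19 (limma adjusted p = 0.0294). It was the 1 of 58 member probe sets called in that direction, against 0.0315% of all probe sets. The difference stayed between 1.20 and 1.38 in 11 other fits of this probe set, but the call was lost in 8 of them: without 1 array it held only when VTA 2 day array 3 was the one left out (adjusted p of 0.045 against 0.0636 to 0.155 for the other 5), and with only these groups in the fit the adjusted p was 0.334 (limma). Against saline after 10 days it differed by 1.05 ± 0.19, again with all arrays apart (limma adjusted p = 0.158). In SN the same probe set was at 0.42, 0.33 and 0.46 after 10 days, against -0.11, -0.77 and -0.20 after 2 days, a difference of 0.76 ± 0.19 (limma adjusted p = 1.00).

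Probe set 1417871_at of Hsd17b7 differed between 10 and 2 days in VTA by 0.75 ± 0.31 and 1457248_x_at by 0.68 ± 0.21, in the direction of the first (limma adjusted p = 0.743 and 0.564). Probe set 1440057_at differed by -0.26 ± 0.18 (limma adjusted p = 0.883), the other way. In SN after 2 days the difference from saline was -0.94 for 1417871_at, -0.057 for 1440057_at, -0.58 for 1448865_at and -0.38 for 1457248_x_at. The annotation used here does not say which transcript each probe set reads, and the suffix _x_at marks probes that may also match other sequences.

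**Figure D4:**
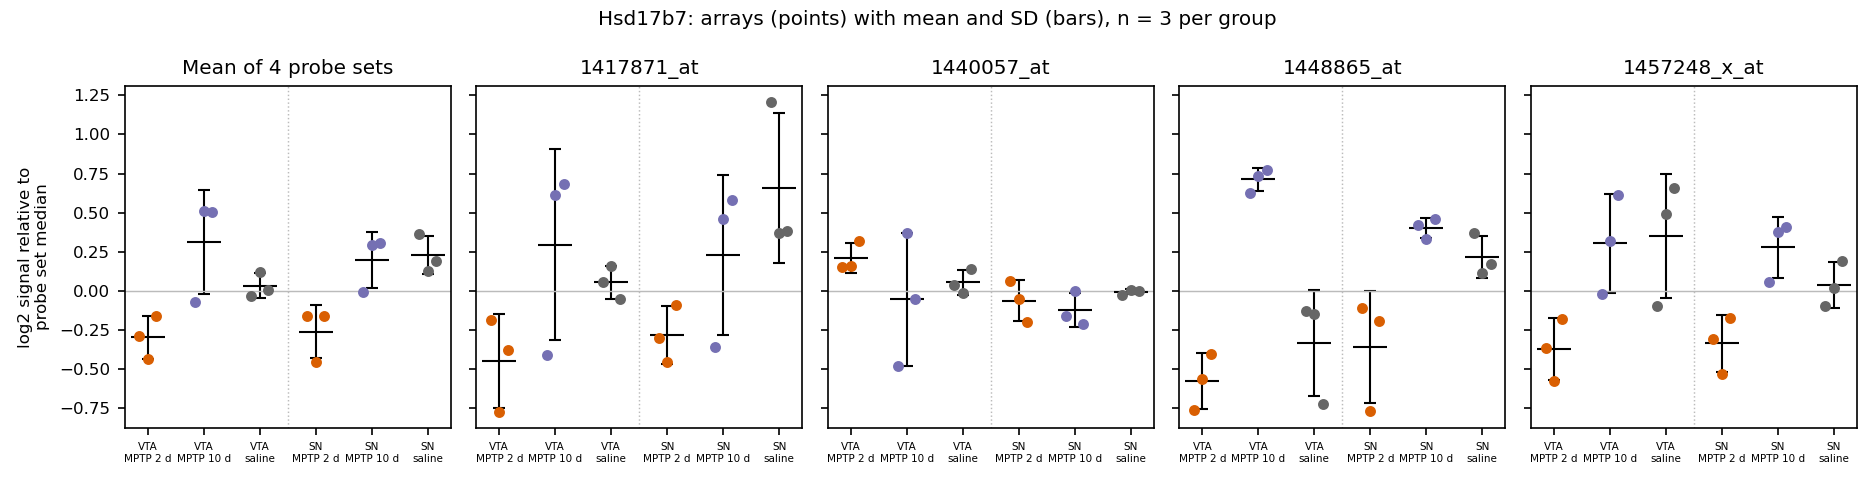
Hsd17b7 log2 signal relative to the probe set median (y axis) by group (x axis), as the mean of its 4 probe sets (left panel) and for each probe set, on each array (points) with mean and SD (bars, n = 3 arrays per group). Probe set 1448865_at lies between 0.63 and 0.77 on the VTA 10 day arrays, above all other VTA arrays.

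Other members with several probe sets also gave mixed values. In SN after 2 days the 2 probe sets of Msmo1, the methylsterol monooxygenase, differed from saline by 0.51 and -0.48, and the 3 of Cyp51 by -0.50, -0.40 and -0.31. After 10 days in SN the Cyp51 probe sets stood at 0.12, -0.44 and -0.32, so their directions differed. The 3 of Sc5d stood at -0.51, -0.48 and 0.039 in SN after 10 days. Of the 5 of Hmgcs1, 1441536_at stood at 0.59 in VTA after 2 days and the others between -0.24 and -0.025.

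Averaged over VTA and SN, the 2 day MPTP groups were below saline for 23 of 27 members, against 54.7% of all genes, with a median of -0.15, against -0.020 over all genes. Hsd17b7 had a mean difference of -0.41 ± 0.11 (limma adjusted p = 0.181), the smallest adjusted p of any member gene in the comparisons with saline. Sqle stood at -0.30 ± 0.11 (limma adjusted p = 0.278), Insig1 at -0.29 ± 0.10 (limma adjusted p = 0.276), Mvd at -0.38 ± 0.15 (limma adjusted p = 0.355) and Insig2 at -0.18 ± 0.076 (limma adjusted p = 0.409). At an unadjusted p under 0.05 there were 6 members, all lower, against 5.79% of all genes lower and 5.34% higher. None passed the adjusted test, in which 16 genes (0.0879%) did. Srebf2 stood at -0.25 ± 0.14 (limma adjusted p = 0.56) and Srebf1 at -0.085 ± 0.21 (limma adjusted p = 0.925). The SN and VTA contrasts use separate arrays, which may come from the same mice. After 2 days 18 of 27 members were lower in both, against 32.8% of all genes.

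After 10 days the same average was below 0 for 18 of 27 members, against 53.4% of all genes, with a median of -0.058, against -0.012 over all genes. The median was -0.12 without VTA saline array 1 and -0.011 without VTA 10 day array 2. Insig2 (-0.20 ± 0.076), Sc5d (-0.24 ± 0.10) and Idi1 (-0.23 ± 0.11) were the 3 members under an unadjusted p of 0.05, all lower, against 3.86% of all genes lower and 3.88% higher (limma adjusted p = 0.537, 0.587 and 0.625). None passed, where 7 genes (0.0385%) did. Srebf2 stood at -0.27 ± 0.14 (limma adjusted p = 0.692), Srebf1 at 0.37 ± 0.21 (limma adjusted p = 0.702), Hsd17b7 at 0.13 ± 0.11 (limma adjusted p = 0.847) and Insig1 at 0.041 ± 0.10 (limma adjusted p = 0.953). In both regions 12 of 27 members were lower after 10 days, against 30.6% of all genes. If VTA and SN arrays came from the same mice, the p-values of these averages do not account for it.

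The series sets VTA against SN neurons. Among saline arrays 17 of 27 members were lower in VTA, against 50% of all genes, with a median of -0.11, against -0.00019 over all genes. Without SN saline array 1 the median was -0.036. Cyp51 was at -0.031, -0.021 and 0.11 on VTA saline arrays, against 0.33, 0.21 and 0.17 on SN saline arrays, a VTA minus SN difference of -0.21 ± 0.14 (limma adjusted p = 1.00). Fdps, the farnesyl diphosphate synthase, was at 0.078, 0.030 and -0.16 on VTA saline arrays, against 0.58, 0.21 and 0.18 on SN saline arrays, a difference of -0.34 ± 0.26 (limma adjusted p = 1.00). With Hsd17b7 (-0.20 ± 0.16), these were the 3 members lower on all VTA saline arrays, against 3.84% of all genes, and 0 were higher on all, against 3.46%. For Cyp51 this held for the mean of its probe sets but for no single probe set.

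Among the other members on saline arrays, Nsdhl, a dehydrogenase of the demethylation steps, differed by -0.33 ± 0.21, Ebp by -0.35 ± 0.24, Insig1 by -0.14 ± 0.14, Srebf1 by 0.19 ± 0.30 and Srebf2 by 0.050 ± 0.20, all with overlap. Limma called 0 of 18193 genes (0%), and 0 members were under an unadjusted p of 0.05, against 2.51% of all genes lower and 1.85% higher. Astrocyte markers moved with this comparison, with 15 of 15 higher (median 0.23), and their mean lay between 0.037 and 0.20 on VTA saline arrays, against -0.17 and -0.022 on SN saline arrays. Of the dopamine neuron markers 11 of 15 were lower (median -0.29), and their mean lay between -0.52 and 0.73 on VTA saline arrays, against 0.34 and 0.96 on SN saline arrays. The part of either was not tested.

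After 2 days of MPTP, 15 of 27 members were lower in VTA than in SN, against 46.3% of all genes, with a median of -0.014, against 0.016 over all genes. The median was -0.032 without SN 2 day array 2 and 0.021 without VTA 2 day array 3, so its direction rested on single arrays. Sc5d was at -0.23, -0.024 and -0.26 on the VTA arrays, against 0.17, 0.23 and 0.10 on the SN arrays, a difference of -0.33 ± 0.14 (limma adjusted p = 1.00). Scd1, a stearoyl-CoA desaturase, was at -0.10, -0.16 and -0.22 on the VTA arrays, against -0.039, 0.075 and 0.29 on the SN arrays, a difference of -0.27 ± 0.18 (limma adjusted p = 1.00). These 2 members were lower on all VTA arrays, against 3.55% of all genes, and 0 were higher on all, against 4.99%. Sc5d was the 1 member under an unadjusted p of 0.05, against 1.06% of all genes lower and 1.73% higher, and limma called 0 genes (0%). Cyp51 (0.17 ± 0.14), Insig1 (0.11 ± 0.14), Hsd17b7 (-0.037 ± 0.16), Srebf1 (-0.35 ± 0.30), Srebf2 (-0.22 ± 0.20) and Acaca (-0.20 ± 0.19), the carboxylase that commits acetyl-CoA to fatty acids, overlapped. Astrocyte markers were lower for 15 of 15 (median -0.22), and their mean lay between -0.26 and -0.051 on VTA arrays, against -0.048 and 0.24 on SN arrays. Oligodendrocyte precursor markers were lower for 5 of 6 (median -0.14), with means between -0.21 and -0.13 on VTA arrays, against 0.014 and 0.064 on SN arrays. Lower too were 13 of 15 oligodendrocyte, 9 of 11 microglia and 9 of 11 endothelial markers. Their part was not tested.

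After 10 days, 16 of 27 members were higher in VTA than in SN, against 51.1% of all genes, with a median of 0.028, against 0.0046 over all genes. No member was separated, against 4.88% of all genes that were higher on all VTA arrays and 4.12% that were lower. With single arrays left out, the members' median ran from -0.056 (without VTA 10 day array 3) to 0.10 (without VTA 10 day array 2), and 6 (without SN 10 day array 3) to 17 members (without VTA 10 day array 3) were lower. Mvk, the mevalonate kinase, differed by 0.18 ± 0.16, Mvd by 0.24 ± 0.21, Msmo1 by -0.28 ± 0.24 and Ebp by 0.27 ± 0.24. Srebf2 differed by 0.19 ± 0.20, Hsd17b7 by 0.12 ± 0.16, Srebf1 by -0.065 ± 0.30 and Insig1 by -0.039 ± 0.14. Limma called 0 genes (0%), and 0 members were under an unadjusted p of 0.05, against 1.1% of all genes lower and 1.89% higher.

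The difference of the responses to MPTP, VTA minus SN, did not pass for any member at either duration, and limma called 0 of 18193 genes (0%) at both. After 2 days it was above 0 for 16 of 27 members, against 52.6% of all genes, with a median of 0.10, against 0.016 over all genes. The median was 0.0054 without SN saline array 1 and 0.17 without SN saline array 3. Cyp51 had the smallest p, at 0.39 ± 0.20, then Scd1 at -0.47 ± 0.25 and Mvk at 0.32 ± 0.23 (limma adjusted p = 1.00 each). Srebf1 stood at -0.54 ± 0.42, Insig1 at 0.26 ± 0.20, Srebf2 at -0.27 ± 0.29 and Hsd17b7 at 0.16 ± 0.23. No member was under an unadjusted p of 0.05, against 1.33% of all genes lower and 1.97% higher. The same difference was above 0 for 14 of 15 dopamine neuron markers (median 0.32) and below 0 for 15 of 15 astrocyte markers (median -0.44), and their part was not tested.

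After 10 days the difference of the responses was above 0 for 21 of 27 members, against 51.8% of all genes, with a median of 0.13, against 0.011 over all genes. With single arrays left out, the members' median ran from 0.042 (without VTA 10 day array 3) to 0.18 (without SN 10 day array 3), and 6 (without SN saline array 2) to 11 members (without SN 10 day array 2) were below 0. All 6 genes of the mevalonate steps lay above 0. Ebp was at 0.61 ± 0.35, Mvk at 0.40 ± 0.23, Cyp51 at 0.31 ± 0.20, Mvd at 0.46 ± 0.30 and Hsd17b7 at 0.31 ± 0.23, each with a limma adjusted p of 1.00. Srebf1 (-0.26 ± 0.42), Srebf2 (0.14 ± 0.29) and Insig1 (0.10 ± 0.20) stood nearer to 0. No member was under an unadjusted p of 0.05, against 1.34% of all genes lower and 1.82% higher. It was above 0 for 14 of 15 dopamine neuron markers (median 0.34) and below 0 for 15 of 15 astrocyte markers (median -0.20); their part was not tested. These tests do not show that the regions respond alike.

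Over the 4 contrasts with saline, which share saline arrays in pairs, Hmgcs1, the synthase that opens the mevalonate steps, ran from 0.028 to 0.10 and Idi1 from -0.23 to -0.19. Pmvk, the phosphomevalonate kinase, ran from -0.36 to -0.023, Fdps from -0.34 to -0.0025, Mvk from -0.23 to 0.16 and Mvd from -0.53 to 0.18. Fdft1, the squalene synthase, ran from -0.23 to -0.063, Lss, which closes lanosterol, from -0.20 to -0.069, Tm7sf2, a sterol reductase, from -0.25 to 0.26, Msmo1 from -0.34 to 0.11, Nsdhl from -0.35 to 0.095 and Dhcr7 from -0.25 to 0.19.

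Of the fatty acid genes, Acaca ran from -0.054 to 0.19, Fasn, the fatty acid synthase, from -0.14 to -0.0069, Scd1 from -0.19 to 0.28 and Scd2, the desaturase prominent in brain, from -0.29 to -0.026. Scap ran from -0.14 to 0.24 and Stard4 from -0.24 to 0.29. The standard error of 1 contrast was 0.108 to 0.296 for members (median 0.187, against 0.191 over all genes), which many of these values do not exceed.

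Members were positively but weakly correlated over arrays on average. On single arrays 6 to 21 of 27 members were below 0. On VTA 10 day arrays 14, 17 and 6 were below 0, against 20, 7 and 9 on VTA saline arrays, so arrays of 1 label differed widely. Across the 18 arrays the 351 pairs of members had a mean correlation of 0.155, against 0.00518 over all genes, and 69.5% of pairs were above 0. With group means subtracted it was 0.13, against 0.00546. Against the mean of the other members, Acaca (r = -0.188), Scap (-0.136), Tm7sf2 (-0.065) and Scd2 (-0.0274) had correlations below 0, and with group means subtracted Acaca was at -0.502 and Scd2 at -0.287. In the values as deposited, the closest pairs were Pmvk with Fdft1 (r = 0.894), Hsd17b7 with Insig1 (r = 0.787) and Cyp51 with Insig1 (r = 0.73). With group means subtracted they were Pmvk with Fdft1 (r = 0.917), Idi1 with Insig1 (r = 0.858) and Idi1 with Cyp51 (r = 0.815). Values of 1 array share their capture, amplification and normalisation, and these correlations are descriptions.

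The mean of the 27 members followed the mean of the 15 dopamine neuron markers, with r = 0.829 and rho = 0.754 over 18 arrays, and r = 0.77 without SN saline array 1 and VTA saline array 2, which lay farthest from the median. With group means subtracted, r was 0.754 and rho 0.643, and r was 0.563 without VTA saline array 1 and VTA 10 day array 3. Among genes, Mvd (r = 0.705), Sqle (0.698), Pmvk (0.646), Fdft1 (0.646) and Srebf2 (0.627) had the highest correlations with the marker mean, and Srebf1 (0.0242), Scd1 (0.00856), Scap (-0.0407), Fdps (-0.0734) and Scd2 (-0.173) the lowest. VTA 10 day array 3 had a marker mean of 0.62 and a member mean of 0.16, and VTA saline array 1 had -0.52 and -0.14. The part of the dopamine neuron content of an array in the members' differences was not tested.

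**Figure D5:**
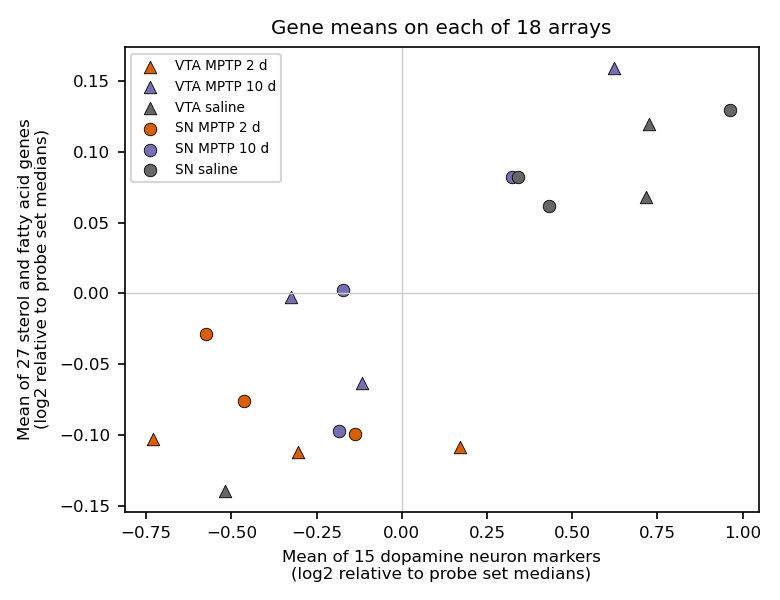
Mean log2 signal of the 27 measured members (y axis) against that of the 15 dopamine neuron markers (x axis), both relative to probe set medians, 1 point per array, triangles for VTA and circles for SN. The SN 2 day arrays lie at marker means of -0.57 to -0.14 with member means of -0.10 to -0.029, and the SN saline arrays at 0.34 to 0.96 with 0.062 to 0.13.

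Beyond the listed members, 61 of 67 further genes of the same metabolism were measured. In SN 32 of the 61 were lower than saline after 2 days (median -0.0099), against 55.3% of all genes, and 29 after 10 days (median 0.0028), against 53.4%. In VTA 38 were lower after 2 days (median -0.047), against 51.6%, and 32 after 10 days (median -0.014), against 50.9%. None of them passed limma's adjusted p in these contrasts. Genes of the isoprenoid branch, which makes dolichol, ubiquinone and prenyl groups from farnesyl diphosphate, were lower after 2 days for 8 of 10 in SN (median -0.14) and 9 of 10 in VTA (median -0.091), and after 10 days for 5 in SN and 5 in VTA. Of further sterol steps, SREBP proteases and regulators in the endoplasmic reticulum, 7 of 9 in SN (median -0.13) and 7 of 9 in VTA (median -0.11) were lower after 2 days, and 6 and 4 after 10 days. In VTA after 2 days the mean of the isoprenoid genes was -0.40 on array 1, against 0.029 and -0.045 on arrays 2 and 3. On VTA saline arrays it lay between -0.030 and 0.028. The mean of the further sterol steps and regulators was -0.26 on array 1, against 0.067 and -0.028 on arrays 2 and 3. On VTA saline arrays it lay between -0.061 and 0.18. Genes of sterol turnover and transport were lower after 2 days for 6 of 17 in SN (median 0.12) and 10 of 17 in VTA (median -0.017), and for 7 in SN and 7 in VTA after 10 days. Of 25 further genes of fatty acid and glycerolipid synthesis, 11 in SN and 12 in VTA were lower after 2 days, and 11 and 16 after 10 days.

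In SN after 2 days Scarb1, a lipoprotein receptor, was at 0.49 ± 0.19 with all arrays higher (limma adjusted p = 0.68) and Elovl6, a fatty acid elongase, at -0.42 ± 0.17. Mylip, a ubiquitin ligase for lipoprotein receptors, was at -0.50 ± 0.26, Dgat1, which makes triglyceride, at 0.39 ± 0.19, the prenyltransferase subunits Fnta at -0.25 ± 0.13 and Rabggta at -0.33 ± 0.24, and the regulators of the endoplasmic reticulum Rnf139 at -0.35 ± 0.20 and Erlin1 at 0.18 ± 0.17. In SN after 10 days Elovl7, another elongase, was at 0.38 ± 0.15 and Dgat1 at 0.45 ± 0.19, both with all arrays higher (limma adjusted p = 0.886 and 0.887). Cyp46a1, the neuronal cholesterol hydroxylase, was at 0.32 ± 0.21, Scarb1 at 0.28 ± 0.19, Fnta at -0.21 ± 0.13, Dhdds, which makes dolichol chains, at -0.19 ± 0.14, Rnf139 at -0.28 ± 0.20 and Ubxn8 at -0.20 ± 0.20.

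In VTA after 2 days Elovl7 was at -0.64 ± 0.15 with all arrays lower (limma adjusted p = 0.305), and Dgat1 at 0.66 ± 0.19 with all arrays higher (limma adjusted p = 0.382). Npc1, which exports cholesterol from lysosomes, was at -0.63 ± 0.26, Abca1, a cholesterol exporter, at -0.37 ± 0.21, Tmem97 at -0.67 ± 0.32, Mbtps2, a protease that cleaves SREBP, at 0.41 ± 0.21, Dhdds at -0.36 ± 0.14 and Pdss2, which makes the ubiquinone tail, at -0.22 ± 0.12. In VTA after 10 days Npc1 (-0.56 ± 0.26), Agpat3 (-0.35 ± 0.12), an acyltransferase, and Pgrmc1 (-0.19 ± 0.14) were lower on all arrays, and Fntb (0.51 ± 0.24), a farnesyltransferase subunit, was higher on all. Ubxn8 was at -0.55 ± 0.20, Fads1, a fatty acid desaturase, at 0.61 ± 0.23, Cyp7b1, an oxysterol hydroxylase, at -0.26 ± 0.15 and Dhdds at -0.26 ± 0.14. The smallest limma adjusted p among these VTA 10 day genes was 0.788.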

How the data were processed

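The authors took log2 of the signals and normalised them by RMA in GeneSpring GX 10.0 (program per the design text of the series, RMA also per the submitters' processing notes). RNA had been amplified with the WT-Ovation Pico system, per the labels' protocols. The deposited log2 values of 45101 probe sets on 18 arrays have a median of 0 per probe set (within 5e-07), a centring no source states, so dim probe sets could not be filtered out. No source used here names a background correction or a filter.

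Of these, 34945 had 1 gene symbol in the array annotation, 932 had several, 9211 had none and 64 were controls. Values were averaged per symbol to 18193 genes and tested with limma 3.58.1 in R 4.3.3 in 1 model of 6 group means (12 residual and 4.06 prior degrees of freedom). Whether arrays overlap was judged on these averages, except where a probe set is named. There were 13 comparisons, two-sided, with Benjamini-Hochberg adjustment over all genes in each. Errors are standard errors of differences, and for a single value 3 arrays against 3 allow an exact permutation p of no less than 0.1. The number of arrays limits the precision. On simulated data for SN after 2 days against saline (18193 genes), 13 of 66 genes changed by 0.5, 40 of 67 changed by 1 and 62 of 67 changed by 2 on the log2 scale were called, with 3 false calls. The simulated noise was normal and independent between genes, with each gene's within-group SD on all arrays alike. The real arrays differed in spread (median absolute deviation 0.182 to 0.399) and genes may vary together, so these shares need not hold for the real data.

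The members, gene lists and marker lists were chosen with earlier results of these data known, and the lists get no test. Named were all members by role and, in each comparison, up to 5 members of smallest p, non-overlapping ones first, and always Hsd17b7, Insig1, Srebf1 and Srebf2; of the further pathway genes, up to 2 per list in each comparison with saline. The single probe sets of Hsd17b7, Msmo1, Cyp51, Sc5d and Hmgcs1 were picked after their values were seen.

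Replicate numbers are shared by the labels of all groups. With group means subtracted, the 3 correlations of same-numbered arrays all exceeded 0.1 only between the VTA and SN 10 day groups (0.324, 0.281 and 0.399). Between the VTA and SN groups they were 0.221, 0.231 and 0.0504 after 2 days and 0.0643, 0.2 and 0.225 after saline. The numbers were taken to pair arrays of the 10 day groups alone, and a replicate block for these was added after seeing the data. Pairing after 2 days or after saline is not excluded. Alternatives were other choices of probe set, fits of the groups compared, centring, quantile normalisation, array weights, replicate blocks and leaving out arrays. Python 3.11.15 with matplotlib 3.10.9 drew the figures.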

Additional observations from a re-analysis of the deposited data

How the results depend on the processing

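No member averaged over its probe sets passed limma's adjusted p of 0.05 under any alternative run. With the probe set of largest SD over all 18 arrays in place of the mean, 1448865_at stood for Hsd17b7. Hsd17b7 then passed between 10 and 2 days in VTA, at 1.29 (limma adjusted p = 0.0302), which repeats the call of that probe set and is not a second result. For its single probe set 1448865_at in that comparison, the difference stayed at 1.20 to 1.38, but the limma adjusted p was 0.334 with only these groups in the fit, 0.0727 with quantile normalisation, 0.12 without the 2 arrays of widest spread, 0.0398 with array weights, 0.0403 with a replicate block and 0.045 to 0.155 with single arrays left out; these fits were chosen after seeing the data. A replicate block cannot move the members' medians, because every group holds all replicate numbers, and it bears on p-values only. The medians were therefore still -0.15 in SN and -0.16 in VTA after 2 days. In the added block over the 10 day groups the median was 0.028 for VTA minus SN, again fixed by the design. The smallest adjusted p among named genes there was 0.723 (limma, Ebp), and the block changed no call. With single arrays left out, the members' median ran from -0.25 to -0.12 in SN after 2 days, -0.19 to -0.075 in SN after 10 days, -0.22 to -0.11 in VTA after 2 days and -0.070 to 0.10 in VTA after 10 days, where 9 to 16 members were lower. It ran from -0.012 to 0.10 for 10 minus 2 days in SN, 0.019 to 0.19 for 10 minus 2 days in VTA, -0.032 to 0.021 for VTA minus SN after 2 days and -0.056 to 0.10 after 10 days. The median's sign in VTA after 10 days, between 10 and 2 days in SN, and between VTA and SN after 2 and after 10 days depends on single arrays. Over the other alternatives the members' median ran from -0.039 to 0.0028 in VTA after 10 days and from -0.068 to 0.035 for VTA minus SN after 2 days. Its sign in these comparisons thus depends on the processing too, and it was kept in the remaining ones.

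The following differences changed sign, none of them called; the cause was not tested. With the probe set of largest SD, Srebf2 in SN after 2 days was at 0.023, Cyp51 and Hsd17b7 in SN after 10 days at 0.12 and 0.18, and Srebf2 for VTA minus SN after saline at -0.044. With quantile normalisation, Srebf1 in SN after 2 days was at -0.021, Insig1 in SN after 10 days at 0.048 and Hsd17b7 for VTA minus SN after 2 days at 0.042. With array weights, Srebf1 in SN after 2 days was at -0.12, Hsd17b7 and Insig1 in SN after 10 days at 0.000734 and 0.077, Srebf1 and Hsd17b7 for VTA minus SN after 2 days at 0.055 and 0.046, and the 2 day response difference of Srebf1 at 0.035. Without the 2 arrays of widest spread, Srebf1 in SN after 2 days was at -0.072, and Hsd17b7 and Insig1 in SN after 10 days at 0.038 and 0.15. In that fit Insig1, Srebf1 and Srebf2 for VTA minus SN after saline were at 0.017, -0.068 and -0.0042, and the 10 day response differences of Insig1 and Srebf1 at -0.056 and 0.0022.

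With single arrays left out, Hsd17b7 ran from -0.086 to 0.073 in SN after 10 days and from -0.13 to 0.034 for VTA minus SN after 2 days. Insig1 ran from -0.097 to 0.15 in SN after 10 days, -0.00078 to 0.15 in VTA after 10 days, -0.0054 to 0.12 for their average, -0.13 to 0.015 for VTA minus SN after 10 days, -0.23 to 0.017 for VTA minus SN after saline and -0.056 to 0.19 for the 10 day response difference. Srebf1 ran from -0.092 to 0.34 in SN after 2 days, -0.24 to 0.041 for the 2 day average, -0.068 to 0.37 for VTA minus SN after saline and -0.44 to 0.0022 for the 10 day response difference. Srebf2 ran from -0.35 to 0.034 in VTA after 10 days, -0.077 to 0.20 for VTA minus SN after saline and -0.011 to 0.37 for the 10 day response difference.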
